A study of Mus musculus with 12 samples.

Results

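A set of 40 genes of the cell cycle, 19 that act in DNA replication and 21 that act in mitosis, were followed in mouse embryonic stem (ES) cells that lack Dicer and in lines derived from them. The members were a fixed list of names. Each was matched to every probe that carried its symbol, an older symbol or its RefSeq accession, and the brightest probe stood for the gene, which gave values for 39 of the 40 among 19342 genes tested. Ccna2, the cyclin A gene, was the one without a value, since its single probe was marked as an outlier by the scanner software on 1 of the 12 arrays. Gene expression was measured on Agilent arrays with 2 colours, each array holding 2 RNAs and each pair of RNAs hybridised 2 times with the dyes exchanged. The labels name wild-type ES cells, the Dicer1-null cell lines 27G5 and 27H10 and, derived from each of the latter, cells overexpressing Dnmt1 (called the Dnmt1 line here) and cells overexpressing Dnmt3a,3b (the Dnmt3a,3b line); every line derived from 27G5 or 27H10 therefore carries the Dicer-null background too. Dicer is the nuclease that cuts microRNA precursors, and Dnmt1, Dnmt3a and Dnmt3b are DNA methyltransferases. All cells grew on gelatin with leukemia inhibitory factor. The strain, the vector and promoter behind the overexpression, and whether arrays that share a sample name also share an extract are not given in the sources used here; arrays were treated as sharing one, so that 7 RNAs were compared.

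From the 12 arrays 6 ratios were formed, those of Dicer-null cells to wild type, Dnmt1 line over its Dicer-null parent and Dnmt3a,3b line over its Dicer-null parent, each in both clones. Values are log2 ratios, so that 0 is no difference and a positive value is more signal in the cells named first. The replicate is the clone (n = 2), errors are SD between the clones unless an SE is named, and a gene was called where limma's adjusted p (Benjamini-Hochberg over the 19342 genes) was under 0.05. Both clones were set against the same wild-type RNA, so the spread of wild type is not in any error, and the number of arrays limits the precision. The Dicer-null RNA of a clone is the numerator of the first ratio and the denominator of the other two, so the comparisons share it and their values are given side by side without being counted as independent.

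A dividing cell first loads the Mcm2-7 helicase onto origins (licensing, by Cdc6 and Cdt1 and held back by geminin), then copies its DNA with polymerase alpha-primase, the Rfc clamp loader, the Pcna sliding clamp and the enzymes that supply deoxynucleotides and join the fragments. Mitosis follows under cyclin B, Plk1 and the Aurora kinases, with the kinetochore, the spindle checkpoint and the kinesin motors moving the chromosomes. ES cells are known for fast division with a short G1 phase and high levels of these mRNAs.

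Most of the 39 genes were not called in any comparison, and their ratios were small. The median absolute log2 ratio of the 39 was 0.16 in Dicer-null over wild type, against 0.28 over all genes. It was 0.11 in the Dnmt1 line against 0.20 over all genes, and 0.11 in the Dnmt3a,3b line against 0.20. These ratios use both channels, and 16 of the 39 genes had a probe saturated in red, against 4.58% of all genes with a saturated channel. For the 10 saturated on all arrays the median absolute ratio was 0.086, and 0.15 with the green channel alone, as described below. In Dicer-null over wild type, 6 of 39 were called higher (15.4%; background 20.4% of all genes) and 2 of 39 lower (5.13%; background 20.2%). For the Dnmt1 line, 3 of 39 were called higher (7.69%; background 12.2%) and 3 of 39 lower (7.69%; background 10.7%). For the Dnmt3a,3b line, 1 of 39 was called higher (2.56%; background 10.6%) and 4 of 39 lower (10.3%; background 10.5%). Each of these shares, from both channels, lay under the share over all genes. With the green channel alone, described below, the shares called lower in both Dnmt lines lay above it. With each array centred on its median in place of loess, the split was 3 higher and 3 lower over wild type and 0 higher and 5 lower in the Dnmt1 line; with the scanner software's own log ratio it was 0 higher and 3 lower in the Dnmt1 line. Altogether 10 of 39 genes (25.6%) were called in at least 1 comparison, against 52.5% of all genes, and 4 of 39 (10.3%) in all 3, against 10.1% of all genes; 29 were called in none. These mRNA ratios are bulk measurements, in which fewer cells in S phase or mitosis and less of an mRNA per cell cannot be told apart.

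**Figure D1:**
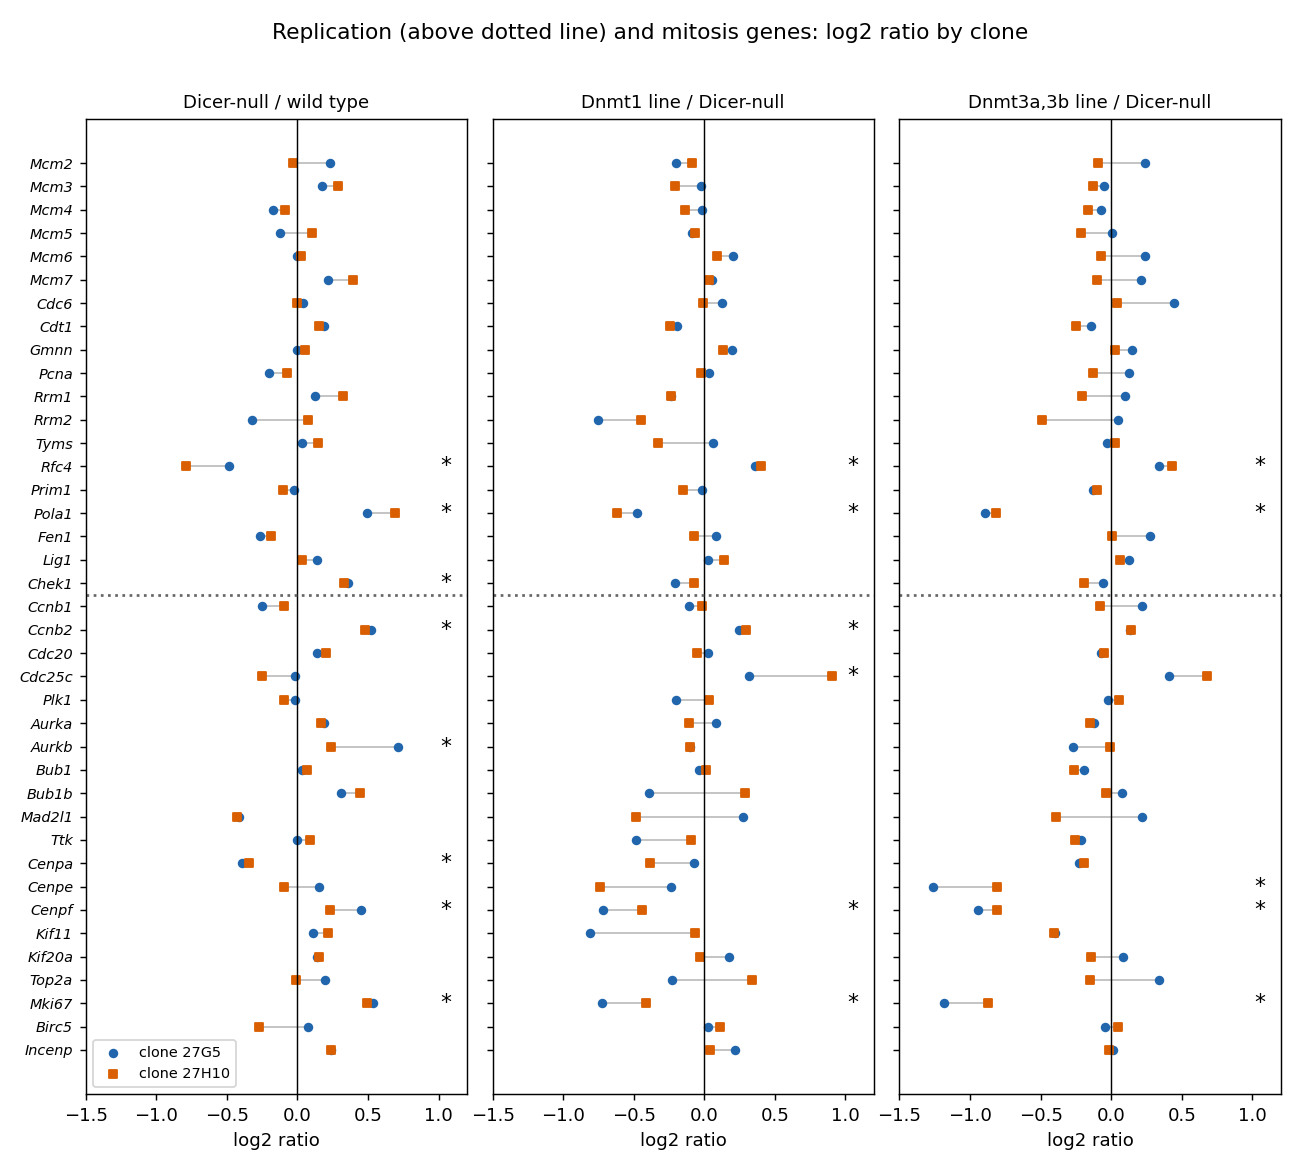
Log2 ratio (x axis) of each of the 39 measured genes (rows) in the 3 comparisons (panels); circles are clone 27G5, squares clone 27H10, and an asterisk at the right marks a gene called in that comparison. Most genes lie within about 0.5 of zero, and Pola1, Rfc4, Cenpf and Mki67 carry an asterisk in all 3 panels.

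The replication and mitosis genes were described apart. The 19 replication genes had a median of 0.026 in Dicer-null over wild type, with 2 called higher and 1 lower, and -0.078 in the Dnmt1 line, with 1 called higher and 1 lower. The 20 measured mitosis genes had a median of 0.12 in Dicer-null over wild type (4 called higher, 1 lower), -0.058 in the Dnmt1 line (2 higher, 2 lower) and -0.075 in the Dnmt3a,3b line (0 higher, 3 lower). Among replication genes 1 was called higher and 1 lower in the Dnmt3a,3b line, with a median of 7.8e-05. The medians over all genes were 0.0087, 0.011 and 0.012 in the same order. Leaving out the Cy3 or the Cy5 orientation of each pair moved the mitosis median in Dicer-null over wild type between 0.0016 and 0.20.

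Pola1, Rfc4, Mki67 and Cenpf were called in all 3 comparisons, each with one direction in Dicer-null cells and the other in both Dnmt lines. Of these, 3 were higher in Dicer-null cells and lower in both lines, and Rfc4 was the reverse. The Dicer-null RNA is shared by the 3 comparisons, as numerator of the first only, so an error in it would also give opposite signs. How many of all genes show such a reversal was not counted. The promoters of Pola1, Rfc4, Mki67 and Cenpf are shown because these genes carry most of the calls. Those of Mcm6 and Top2a, which hold the same kinds of motif letters and were called in no comparison, are shown beside them. Each sequence is the 250 bases before the RefSeq start on GRCm38.p6, 5′ to 3′ on the gene's strand, and capitals mark matches on either strand to TTTGAA (the cell cycle homology region or CHR), to CCAAT (the CCAAT box) and to 4 forms of the E2F site (TTTCCCGC, TTTGGCGC, TTTGCCGC and TTTCGCGC). Their positions are chrX:93632156-93632405 for Pola1, chr16:23127731-23127980 for Rfc4, chr7:135716380-135716629 for Mki67, chr1:189688087-189688336 for Cenpf, chr1:128359706-128359955 for Mcm6 and chr11:99024190-99024439 for Top2a, all on the minus strand.
Pola1: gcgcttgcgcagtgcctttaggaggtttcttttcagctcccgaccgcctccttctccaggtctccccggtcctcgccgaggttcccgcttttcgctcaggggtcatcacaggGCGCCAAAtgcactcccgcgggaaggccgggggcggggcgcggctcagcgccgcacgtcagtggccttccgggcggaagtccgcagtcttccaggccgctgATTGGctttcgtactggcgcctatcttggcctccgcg
Rfc4: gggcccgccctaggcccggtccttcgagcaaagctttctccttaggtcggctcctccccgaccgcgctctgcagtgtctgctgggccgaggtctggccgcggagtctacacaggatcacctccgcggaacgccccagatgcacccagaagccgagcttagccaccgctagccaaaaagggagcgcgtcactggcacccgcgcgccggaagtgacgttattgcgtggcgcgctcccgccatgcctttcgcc
Mki67: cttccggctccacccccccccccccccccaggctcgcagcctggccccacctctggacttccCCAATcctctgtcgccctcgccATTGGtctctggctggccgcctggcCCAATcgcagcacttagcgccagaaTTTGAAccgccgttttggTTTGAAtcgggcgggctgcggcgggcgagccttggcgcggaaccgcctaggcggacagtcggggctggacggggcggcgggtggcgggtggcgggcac
Cenpf: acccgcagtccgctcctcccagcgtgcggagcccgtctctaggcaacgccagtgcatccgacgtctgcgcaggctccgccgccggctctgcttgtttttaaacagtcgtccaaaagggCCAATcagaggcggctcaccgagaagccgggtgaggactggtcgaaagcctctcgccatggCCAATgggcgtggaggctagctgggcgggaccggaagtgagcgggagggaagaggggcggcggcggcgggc
Mcm6: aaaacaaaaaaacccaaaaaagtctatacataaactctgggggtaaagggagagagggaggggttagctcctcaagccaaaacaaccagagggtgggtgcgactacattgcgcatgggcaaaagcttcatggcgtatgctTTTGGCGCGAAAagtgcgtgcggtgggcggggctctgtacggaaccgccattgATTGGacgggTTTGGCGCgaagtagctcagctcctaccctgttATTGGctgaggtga
Top2a: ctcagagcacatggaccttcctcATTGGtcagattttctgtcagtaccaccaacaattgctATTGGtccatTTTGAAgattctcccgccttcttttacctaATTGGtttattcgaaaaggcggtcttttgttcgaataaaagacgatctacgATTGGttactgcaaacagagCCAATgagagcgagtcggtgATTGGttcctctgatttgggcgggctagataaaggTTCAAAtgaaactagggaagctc

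Pola1 encodes the catalytic subunit of DNA polymerase alpha, which makes the first stretch of each new strand. Its log2 ratios of Dicer-null over wild type were 0.43 and 0.56 on the arrays of 27G5 and 0.64 and 0.74 on those of 27H10, in each clone the array with the numerator in Cy5 first. They were -0.56 and -0.39 in 27G5 and -0.76 and -0.48 in 27H10 in the Dnmt1 line, and in the Dnmt3a,3b line -1.25 and -0.54 in 27G5 and -1.04 and -0.60 in 27H10. Every array of the first comparison was above zero and every array of the other two below it. Pola1 was therefore 1.51-fold higher in Dicer-null cells (log2 0.59 ± 0.14, SE 0.086, adjusted p = 0.0041), 1.46-fold lower in the Dnmt1 line (-0.55 ± 0.10, adjusted p = 0.012) and 1.81-fold lower in the Dnmt3a,3b line (-0.86 ± 0.054, adjusted p = 0.0049). Its probe lies on the X chromosome at 88691502 to 88691561 of mouse build mm7, the build the file headers give.

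Mki67 encodes the Ki-67 antigen, a coat protein of mitotic chromosomes used as a marker of cycling cells. Its arrays of Dicer-null over wild type gave 0.67 and 0.39 in 27G5 and 0.55 and 0.44 in 27H10. Those of the Dnmt1 line gave -0.73 and -0.73 in 27G5 and -0.25 and -0.57 in 27H10, and those of the Dnmt3a,3b line -1.09 and -1.28 in 27G5 and -0.77 and -0.98 in 27H10. No array crossed zero, and clone 27G5 had the lower values in both Dnmt lines. The gene was 1.43-fold higher in Dicer-null cells (0.51 ± 0.026, adjusted p = 0.018), 1.48-fold lower in the Dnmt1 line (-0.57 ± 0.22, adjusted p = 0.024) and 2.04-fold lower in the Dnmt3a,3b line (-1.03 ± 0.22, adjusted p = 0.0060). A second Mki67 probe gave 0.53, -0.43 and -0.81 in the 3 comparisons. The probe used was saturated in red on 1 of 12 arrays, an array of the Dnmt1 line. The calls were kept in 17, 16 and 18 of 20 alternative settings in the 3 comparisons. That in the Dnmt1 line was lost with unsaturated probes, among others.

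Cenpf encodes a large kinetochore protein that accumulates in G2. Its arrays of Dicer-null over wild type gave 0.62 and 0.28 in 27G5 and 0.37 and 0.090 in 27H10. Those of the Dnmt1 line gave -0.50 and -0.94 in 27G5 and -0.32 and -0.56 in 27H10, and those of the Dnmt3a,3b line -0.77 and -1.12 in 27G5 and -0.70 and -0.93 in 27H10. The lowest of the 4 arrays with wild type was close to zero and the other 11 were not. Cenpf was 1.26-fold higher in Dicer-null cells (0.34 ± 0.16, adjusted p = 0.048), 1.49-fold lower in the Dnmt1 line (-0.58 ± 0.20, adjusted p = 0.018) and 1.84-fold lower in the Dnmt3a,3b line (-0.88 ± 0.094, adjusted p = 0.0067). The first of these calls was lost under 10 of 20 alternative settings. A second Cenpf probe, left out because its spots were marked as outliers on 4 arrays, ran in the same directions on all 12 when the marks were ignored.

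Rfc4 encodes a subunit of the clamp loader that sets Pcna on DNA. Its arrays of Dicer-null over wild type gave -0.53 and -0.44 in 27G5 and -0.77 and -0.81 in 27H10. Those of the Dnmt1 line gave 0.35 and 0.36 in 27G5 and 0.26 and 0.55 in 27H10, and those of the Dnmt3a,3b line 0.029 and 0.65 in 27G5 and 0.28 and 0.58 in 27H10. All arrays of a comparison were on one side of zero, with 1 array of the Dnmt3a,3b line near it. Rfc4 was 1.55-fold lower in Dicer-null cells (-0.64 ± 0.22, adjusted p = 0.0046), 1.30-fold higher in the Dnmt1 line (0.38 ± 0.034, adjusted p = 0.041) and 1.30-fold higher in the Dnmt3a,3b line (0.38 ± 0.065, adjusted p = 0.043). The call in the Dnmt1 line was lost in 8 of 20 alternative settings and that in the Dnmt3a,3b line in 7 of 20, with the scanner's log ratio, the deposited value table and clone as a block among them in both.

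**Figure D2:**
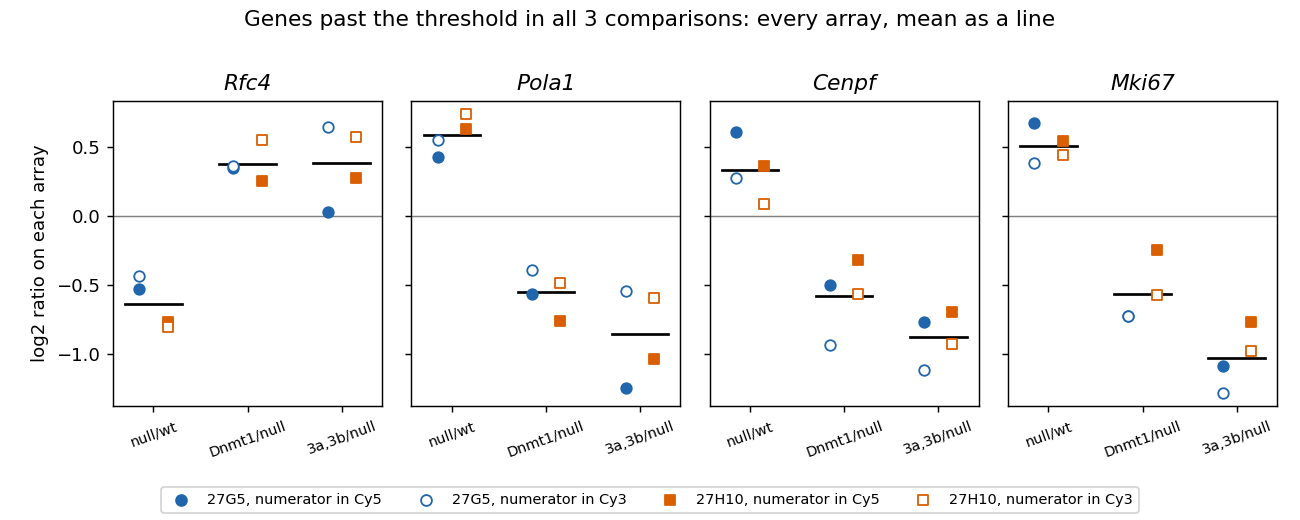
Log2 ratio on each of the 12 arrays (y axis) for the 4 genes called in all 3 comparisons (panels), with circles for clone 27G5, squares for 27H10, filled symbols for the numerator in Cy5, open symbols for the numerator in Cy3 and a line at the mean. Pola1, Cenpf and Mki67 lie above zero for Dicer-null over wild type and below it for both Dnmt lines, and Rfc4 lies on the other side each time.

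The calls of all members rest on a fit that takes the 6 ratios as independent. When the RNAs they share were put into the model, no member was called in the first 2 comparisons (background 9.77% and 2.21% of all genes called in either direction) and 2 were called in the Dnmt3a,3b line, Cenpf (adjusted p = 0.045) and Mki67 (adjusted p = 0.047), against 1.89% of all genes. With 1 clone's ratio of a comparison left out, the fit called few genes of any kind in the Dnmt3a,3b line (0.0207% of all genes without 27G5 and 0% without 27H10), and no member. Over wild type the members called were 2 without 27G5 (1 higher, 1 lower; 17.6% of all genes called in either direction) and 1 without 27H10 (higher; 15.8%). For the Dnmt1 line they were 3 without 27G5 (1 higher, 2 lower; 23.4%) and 4 without 27H10 (all lower; 11.6%), with genes newly called among them: Cenpa without 27G5, and Kif11 and Ttk without 27H10.

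With both channels none of the 9 licensing genes, Mcm2 to Mcm7, Cdc6, Cdt1 and Gmnn, was called, against 52.5% of all genes called in at least 1 comparison. Of these genes, Mcm3, Mcm4, Mcm6, Mcm7 and Gmnn were saturated in red on all 12 arrays, Mcm5 on 11 and Cdt1 on 9. With green alone, described below, Mcm4 and Mcm7 were called over wild type and Cdt1 in both Dnmt lines. The ratios of the 9 genes with both channels lay between -0.13 and 0.31 in Dicer-null over wild type, -0.22 and 0.16 in the Dnmt1 line and -0.20 and 0.24 in the Dnmt3a,3b line. The highest was Mcm7, a helicase subunit, at 0.31 ± 0.12 over wild type (95% interval 0.054 to 0.56, adjusted p = 0.059). Cdt1, the loading factor that geminin binds, gave 0.17 ± 0.025, -0.22 ± 0.034 and -0.20 ± 0.078 in the 3 comparisons, with an adjusted p of 0.086 in the Dnmt1 line. Gmnn, the geminin gene, gave 0.026 ± 0.042, 0.16 ± 0.044 and 0.089 ± 0.085. Cdc6, the ATPase that recruits the helicase, gave 0.016 ± 0.029 over wild type on its brighter probe and -1.27 on a second probe of the same accession, which lies downstream on chromosome 11 (99032894 to 99032953 against 99030298 to 99030357, mm7). Which of the 2 Cdc6 probes reports the transcript was not tested.

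The 2 dye orientations of a pair often gave these genes opposite signs. For Mcm6, the arrays with the numerator in Cy5 gave -0.58, -0.45, -0.27, -0.43, -0.42 and -0.66 over the 6 pairs, and the arrays with the numerator in Cy3 gave 0.58, 0.50, 0.68, 0.61, 0.90 and 0.52. The 2 orientations stood on opposite sides of zero in all 6 pairs for Mcm2, Mcm3, Mcm4, Mcm6, Cdt1, Gmnn, Pcna, Plk1 and Kif20a. Over the 39 genes this was so for 18 to 28 genes per pair (46.2% to 71.8%), against 20.1% to 42.4% of all genes. It was so in 0 of 6 pairs for Pola1, Rfc4, Mki67 and Cenpf. Of the 39 genes, 16 had a probe saturated in the red channel on 1 or more arrays, against 4.58% of all genes with a saturated channel. Of these, 10 were saturated in red on all 12 arrays: Mcm3, Mcm4, Mcm6, Mcm7, Gmnn, Pcna, Cdc20, Kif20a, Birc5 and Incenp. No member was saturated in green.

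**Figure D3:**
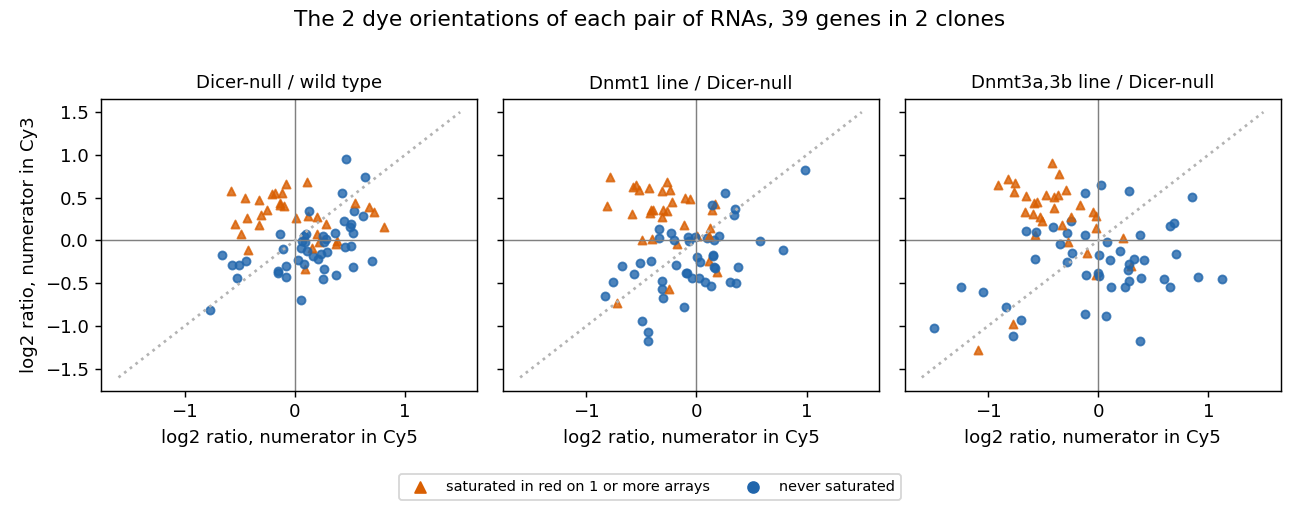
Log2 ratio with the numerator in Cy3 (y axis) against the same ratio with the numerator in Cy5 (x axis) for the 39 genes in both clones, 1 panel per comparison; triangles are genes saturated in red on 1 or more arrays and the dotted line marks equal values. Triangles gather in the upper left, where the 2 orientations have opposite signs.

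Since a saturated channel has only a bound, the ratios were also formed from the green channel alone, as the green signal of the numerator on one array of a pair over that of the denominator on the other, an alternative added after the saturation was seen. Such ratios carry differences between arrays that a ratio within an array does not. Pcna, the sliding clamp, went from -0.14 ± 0.092 (adjusted p = 0.28) in Dicer-null over wild type with both channels to -0.57 ± 0.15 (adjusted p = 0.0068) with green alone. Mcm4 went from -0.13 ± 0.064 (adjusted p = 0.23) to -0.55 ± 0.076 (adjusted p = 0.0055), and Mcm7 from 0.31 to 0.48 ± 0.22 (adjusted p = 0.024). Cdt1 went from -0.22 to -0.51 ± 0.14 (adjusted p = 0.013) in the Dnmt1 line and in the Dnmt3a,3b line from -0.20 to -0.39 ± 0.054 (adjusted p = 0.035). Among the 10 genes saturated on all arrays, 23 of 30 ratios lay farther from zero with green alone, and the median absolute ratio was 0.15 against 0.086. Among the 23 genes never saturated, 41 of 69 did, and the medians were 0.17 against 0.14. A second, dimmer Mcm3 probe gave 0.25, -0.057 and 0.18 with both channels in the 3 comparisons. The saturated Mcm3 probe used gave 0.23, -0.11 and -0.087 with both channels and 0.32, -0.35 and -0.22 with green alone. The part of saturation in the small ratios of the Mcm genes and Pcna was not tested beyond these values.

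With green alone, 6 of 39 genes were called higher in Dicer-null over wild type (background 20.1%) and 5 lower (background 21.2%). For the Dnmt1 line 1 was called higher (background 12%) and 6 lower (background 11.2%), and in the Dnmt3a,3b line 1 higher (background 10.2%) and 7 lower (background 9.78%). As shares of the 39 genes, those called lower in both Dnmt lines were thus above the background, and the other shares were under it. The excess was not tested. Of the 19 calls made with both channels, 15 were also made with green alone in the same direction, those of Pola1, Rfc4, Mki67 and Cenpf among them in all 3 comparisons. The calls of Chek1 and Aurkb over wild type and of Ccnb2 and Cdc25c in the Dnmt1 line were lost. A further 11 calls were made with green alone, those of Bub1b, Mcm7, Ccnb1, Mcm4 and Pcna over wild type and of Cdt1, Kif11 and Ttk in both Dnmt lines.

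**Figure D4:**
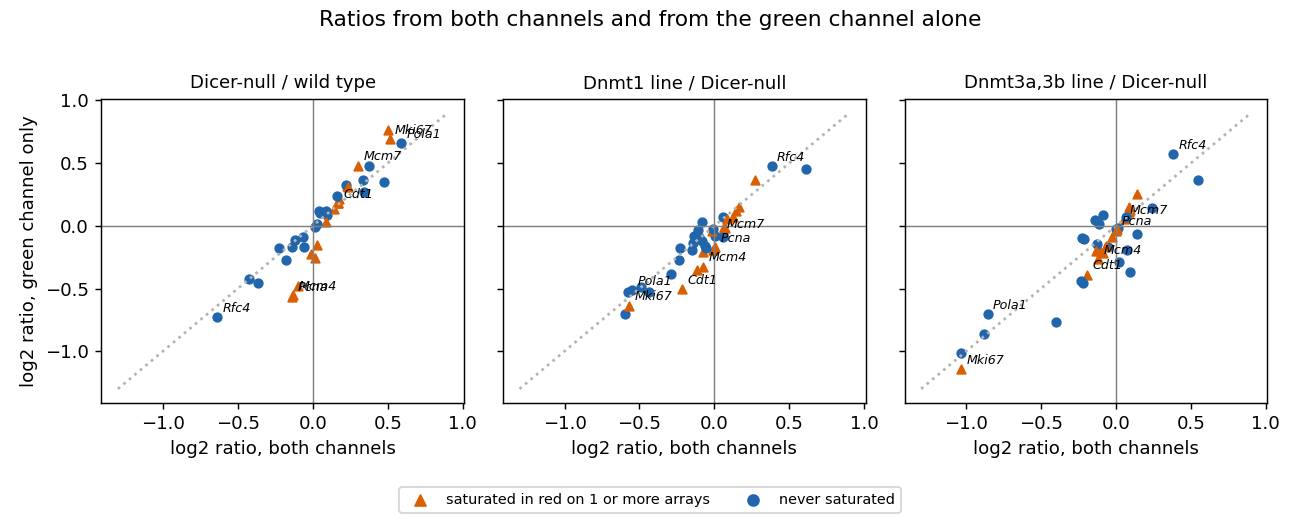
Log2 ratio from the green channel alone (y axis) against the ratio from both channels (x axis) for the 39 genes, 1 panel per comparison; triangles are genes saturated in red on 1 or more arrays and the dotted line marks equal values. Pcna and Mcm4 lie near -0.14 and -0.13 on the x axis and near -0.57 and -0.55 on the y axis in the first panel. Pola1, Rfc4 and Mki67 lie on the same side of zero on both axes in each panel. Mki67 is at 0.51 (x) and 0.69 (y) in the first panel, and Rfc4 at 0.38 (x) and 0.57 (y) in the third.

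At the replication fork, Pola1 and Rfc4 were the called genes. Prim1, the primase subunit that works with Pola1, gave -0.064 ± 0.054, -0.085 ± 0.096 and -0.11 ± 0.020 and was not called. Fen1, the flap nuclease, gave -0.23 ± 0.057, 0.0034 ± 0.11 and 0.14 ± 0.19. Lig1, the ligase that seals Okazaki fragments, gave 0.086 ± 0.077, 0.083 ± 0.078 and 0.093 ± 0.045. Pcna gave 0.0072 ± 0.039 in the Dnmt1 line with both channels. The 95% intervals had a median reach of 0.24 to either side over the 39 genes.

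Of the genes for deoxynucleotide supply, none was called. Rrm2, the small subunit of ribonucleotide reductase, gave -0.44 and -1.06 on the arrays of 27G5 and -0.11 and -0.78 on those of 27H10 in the Dnmt1 line. All 4 arrays were below zero, and the mean was -0.60 ± 0.22 (95% interval -1.02 to -0.18, adjusted p = 0.055). Rrm2 gave -0.22 ± 0.38 in the Dnmt3a,3b line, with 27G5 at 0.050 and 27H10 at -0.49. Rrm1, the large subunit, gave 0.22 ± 0.14, -0.24 and -0.055 ± 0.21. Tyms, thymidylate synthase, gave 0.091 ± 0.080, -0.13 ± 0.27 and 0.00079 ± 0.040.

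Chek1 encodes the S-phase checkpoint kinase. Its arrays of Dicer-null over wild type gave 0.51 and 0.20 in 27G5 and 0.44 and 0.22 in 27H10, all above zero, for a mean of 0.34 ± 0.016 (1.27-fold, adjusted p = 0.018). A second probe gave 0.32. The call was lost in 8 of 20 alternative settings, with adjusted p from 0.0038 to 0.20, and Chek1 was not called in either Dnmt line (-0.14 ± 0.095 and -0.13 ± 0.091).

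Of the 5 measured genes of mitotic entry, Ccnb2 was called over wild type. This gene for cyclin B2 gave 0.72 and 0.33 on the arrays of 27G5 and 0.81 and 0.15 on those of 27H10, all above zero, for a mean of 0.50 ± 0.030 (1.42-fold, adjusted p = 0.0033). That call was lost in 5 of 19 alternative settings, the one with the dye orientation as a replicate block among them. With green alone it was 0.76 ± 0.10, and its probe was saturated in red on 10 of 12 arrays. In the Dnmt1 line it was again higher, at 0.27 ± 0.034 (adjusted p = 0.042), a call lost in 11 of 19 alternative settings, and in the Dnmt3a,3b line it gave 0.14 ± 0.0046 without a call. Ccnb1, for cyclin B1, gave -0.18 ± 0.11, -0.062 ± 0.065 and 0.070 ± 0.21, with no call. Other, dimmer Ccnb1 probes gave -0.17 and -0.18 over wild type and -0.28 and -0.24 in the Dnmt1 line. In the Dnmt3a,3b line they gave -0.17 and -0.10, on the other side of zero from the probe used. With green alone Ccnb1 was lower over wild type at -0.27 ± 0.025 (adjusted p = 0.046).

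Cdc25c encodes the phosphatase that switches on Cdk1. It gave 0.34 and 0.29 on the arrays of 27G5 and 0.98 and 0.82 on those of 27H10 in the Dnmt1 line. All 4 were above zero and the 2 clones did not overlap; the mean was 0.61 ± 0.41 (1.53-fold, adjusted p = 0.045), a call lost in 6 of 20 alternative settings. In the Dnmt3a,3b line the mean was 0.55 ± 0.19 (adjusted p = 0.062, not called), and a second probe gave 0.58 and 0.53. The polo kinase Plk1 gave -0.056 ± 0.056, -0.085 ± 0.16 and 0.015 ± 0.054, and the Aurora A gene Aurka 0.18 ± 0.013, -0.014 ± 0.13 and -0.14 ± 0.017, without a call. Ccna2, left out of the counts, gave between -0.58 and 0.79 over its 12 arrays when the outlier mark was ignored.

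In the chromosomal passenger complex, which corrects wrong attachments of chromosomes to the spindle, Aurkb was called. The Aurora B gene gave 0.47 and 0.95 on the arrays of 27G5 and 0.13 and 0.34 on those of 27H10 over wild type, all above zero and with 27G5 the higher clone, for a mean of 0.47 ± 0.33 (1.39-fold, adjusted p = 0.035). The call was lost in 8 of 20 alternative settings. Incenp, the scaffold of the complex, gave 0.24 ± 0.00069 over wild type (adjusted p = 0.057), and Birc5, for survivin, gave -0.097 ± 0.24. In the Dnmt lines the 3 genes lay between -0.14 and 0.13 and none was called.

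None of the 5 genes of the spindle checkpoint and mitotic exit was called. Bub1b, for the checkpoint protein BubR1, gave 0.37 ± 0.095 over wild type (adjusted p = 0.12) and 0.47 ± 0.24 with green alone (adjusted p = 0.029). Mad2l1, for Mad2, gave -0.42 ± 0.010 over wild type with an SE of 0.22 (adjusted p = 0.17). Its clones stood apart in the Dnmt1 line, with 27G5 at 0.27 and 27H10 at -0.49. In the Dnmt3a,3b line the clones were at 0.22 and -0.39, but the arrays of 27G5 lay on opposite sides of zero, at -0.12 and 0.56. Ttk, for the checkpoint kinase Mps1, gave 0.041 ± 0.065, -0.29 ± 0.28 and -0.24 ± 0.032, and with green alone it was lower in both Dnmt lines, at -0.38 ± 0.11 (adjusted p = 0.031) and -0.44 ± 0.035 (adjusted p = 0.023). Bub1 gave -0.23 ± 0.052 in the Dnmt3a,3b line (adjusted p = 0.075), with all 4 arrays between -0.28 and -0.15. Cdc20, the activator of the anaphase-promoting complex, lay between -0.064 and 0.17 in the 3 comparisons.

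At the centromere and kinetochore, Cenpa, Cenpe and Cenpf were each called in at least 1 comparison, as were 52.5% of all genes. Cenpa, the centromeric histone H3 variant, was 1.29-fold lower in Dicer-null cells, with -0.51 and -0.28 on the arrays of 27G5 and -0.44 and -0.24 on those of 27H10 (-0.37 ± 0.036, adjusted p = 0.028). It was below zero in the Dnmt lines too, at -0.23 ± 0.22 and -0.21 ± 0.029, without a call. Cenpe encodes a kinesin that carries chromosomes to the spindle equator. Its arrays of the Dnmt3a,3b line gave -1.49 and -1.03 in 27G5 and -0.84 and -0.78 in 27H10, all below zero, and the gene was 2.05-fold lower (-1.03 ± 0.32, adjusted p = 0.013). Its 2 other probes gave -0.86 and -1.40. Cenpe gave -0.49 ± 0.35 in the Dnmt1 line (adjusted p = 0.088) and over wild type 0.028 ± 0.18. Its 2 other probes gave -0.58 and -1.05 in the Dnmt1 line and -0.019 and -0.055 over wild type. In the Dnmt1 line Cenpe was called in 3 of 20 alternative settings, the mean over all probes among them.

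The spindle motors and Top2a were not called with both channels. Kif11, the motor that pushes the spindle poles apart, gave -0.44 and -1.17 on the arrays of 27G5 and 0.36 and -0.50 on those of 27H10 in the Dnmt1 line, so that the orientations of 27H10 disagreed in sign; the mean was -0.44 ± 0.52 (adjusted p = 0.12). In the Dnmt3a,3b line the arrays gave 0.38, -1.17, 0.071 and -0.88, for a mean of -0.40 ± 0.0069 (adjusted p = 0.15). With green alone Kif11 was lower in both Dnmt lines, at -0.53 ± 0.24 (adjusted p = 0.025) and -0.77 ± 0.051 (adjusted p = 0.0083). Kif20a, a motor of the central spindle, lay between -0.027 and 0.14. Top2a, the topoisomerase that untangles sister chromosomes, gave 0.091 ± 0.14, 0.055 ± 0.40 and 0.094 ± 0.34. With green alone Top2a gave 0.12 ± 0.076, -0.087 ± 0.10 and -0.37 ± 0.20 (adjusted p = 0.053 for the last), also without a call. Other, dimmer Top2a probes gave -0.19 and -0.0067 in the Dnmt1 line and -0.075 and 0.12 in the Dnmt3a,3b line.

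The Dnmt3a,3b line was set against the Dnmt1 line within the same fit. No gene was called in either direction (0 of 39 members; background 0% of all genes), and at an unadjusted p under 0.05 there were 179 genes (0.925%) and 2 of the 39, both lower. Mki67 had a difference of -0.46 (95% interval -0.87 to -0.056) and Pola1 one of -0.31 (-0.61 to -0.0037), with an adjusted p of 1.00 for both. Cenpe differed by -0.54 (-1.13 to 0.037) and Cenpf by -0.30 (-0.67 to 0.068). The fit takes the 2 ratios of a clone as independent, although they share its Dicer-null RNA, whose own error cancels in the difference. These intervals may therefore be too wide, and the lack of calls does not show that the lines are alike. With the shared RNAs modelled, no gene was called either.

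The clones share no RNA in the Dnmt comparisons, so their likeness was described there. Over the 39 genes the ratios of 27G5 and 27H10 correlated at r = 0.48 in the Dnmt1 line and 0.81 in the Dnmt3a,3b line, against 0.68 and 0.82 over all genes; the points share probes and arrays and no p is given. The median absolute difference between the clones over the 39 genes was 0.14 in the Dnmt1 line and 0.12 in the Dnmt3a,3b line, against 0.21 and 0.14 over all genes.

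Other genes of the same pathways were counted from longer lists. Of 44 further replication genes, 4 were called higher and 13 lower in Dicer-null over wild type (background 20.4% and 20.2% of all genes), with a median of -0.16, and the largest statistics were those of Orc6 (-0.68, adjusted p = 0.0013), an origin recognition subunit, Dut (-0.88, adjusted p = 0.0026), the dUTPase, Tipin (-0.60, adjusted p = 0.0034), of the fork protection complex, and Dbf4 (-0.60, adjusted p = 0.0037), the activator of Cdc7. Of 55 further mitosis genes, 23 were called higher and 4 lower in the same comparison (same background), with a median of 0.34. Named by the same rule, Cenpm (0.87, adjusted p = 0.0011), a centromere protein, Nusap1 (1.02, adjusted p = 0.0032), which bundles spindle microtubules, and Fzr1 (0.65, adjusted p = 0.0039), an activator of the anaphase-promoting complex, were higher, and Fbxo5 (-0.72, adjusted p = 0.0013), an inhibitor of that complex, was lower. Among the 20 measured mitosis members 4 were called higher there.

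In the Dnmt lines the background was 12.2% higher and 10.7% lower for the Dnmt1 line and 10.6% and 10.5% for the Dnmt3a,3b line. Of the 44 replication genes, 3 were called higher and 2 lower in the Dnmt1 line and 2 higher and 1 lower in the Dnmt3a,3b line; Orc3 was higher in both (0.53, adjusted p = 0.015, and 0.43, adjusted p = 0.027) and Rfc1, the large subunit of the clamp loader, lower in both (-0.41, adjusted p = 0.027, and -0.47, adjusted p = 0.019). Orc6 was higher in the Dnmt1 line (0.31, adjusted p = 0.030), Gins2, of the helicase complex, lower there (-0.41, adjusted p = 0.019), and Pola2, the regulatory partner of Pola1, higher in the Dnmt3a,3b line (0.53, adjusted p = 0.039). Of the 55 mitosis genes, 3 were called higher and 1 lower in the Dnmt1 line and 0 higher and 6 lower in the Dnmt3a,3b line. Kif18a, a motor that limits chromosome movement, was lower in both (-0.81, adjusted p = 0.0037, and -1.05, adjusted p = 0.0028). In the Dnmt1 line Cenpk (0.31), Zwilch (0.30) and Ncapd2 (0.35) were higher, and in the Dnmt3a,3b line Smc4 (-0.72), Knl1 (-0.84) and Ect2 (-0.39) were lower.

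The promoter windows of the members, 250 bases before to 50 after the RefSeq start, were searched on both strands for the motif letters given above. A window was found for 33 of the 40 members, 17 replication and 16 mitosis genes; 3 members had more than 1 window, and the first listed was counted, for all genes alike. The CHR letters were in 11 of 16 mitosis promoters (68.8%), in 2 of 17 replication promoters (11.8%) and in 18.1% of 27025 promoters of all genes. An E2F form was in 7 of 17 replication promoters (41.2%), in 0 of 16 mitosis promoters and in 2.32% of all; with any window counted, another window of Lig1 would make it 8 of 17. The CCAAT letters were in 58.8% of replication promoters, 87.5% of mitosis promoters and 37.9% of all. In Mcm6 the forms TTTGGCGC and TTTCGCGC overlap by 4 bases, 110 and 106 bases before the start, and the same pair overlaps in Mcm5. These matches describe letters, not binding.

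**Figure D5:**
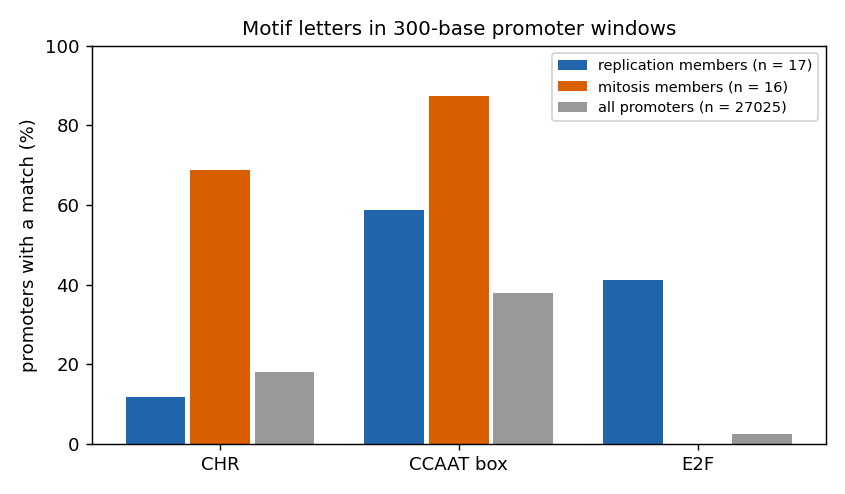
Share of promoter windows (y axis, percent) that hold the CHR, CCAAT box or E2F letters, for 17 replication members, 16 mitosis members and 27025 promoters of all genes. CHR letters are most frequent in the mitosis bars and E2F forms in the replication bars.

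Motif letters were found in called and in uncalled members. Of the 4 genes called in all 3 comparisons, Pola1 had an E2F form 138 bases before the start, and its CCAAT letters on the minus strand lay 37 bases before it. Mki67 had CHR letters 116 and 98 bases before the start and 3 CCAAT matches, Cenpf had CHR letters just after the start, outside the printed stretch, and 2 CCAAT matches, and Rfc4 had no match. Top2a, called in no comparison, had CHR letters 179 and 23 bases before the start and 6 CCAAT matches, and Mcm6 had 3 E2F matches.

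Facts of the whole series bear on these values as follows. Across the 12 arrays, 62.2% to 68.6% of spots were well above background in green and 64.5% to 69.1% in red, and all 39 members were well above background in both channels of every array. Dicer1 was lower in Dicer-null cells, at -0.53 on its brighter probe (adjusted p = 0.0040), and its second probe, well above background in 8 of 24 channels, gave -4.07. In the lines labelled as overexpressing them, Dnmt1 gave 0.27 (adjusted p = 0.11), Dnmt3a -1.03 (adjusted p = 0.083) and Dnmt3b -1.04 (adjusted p = 0.034), so these probes did not show the labelled rise, and the lines are named by their labels throughout. Other, dimmer Dnmt3a probes gave -0.72 and 0.20 in the Dnmt3a,3b line, so the probes of this gene differed in sign. Which part of each transcript the vectors carried is not given in the sources used here. Of 8 ES cell markers, 5 were called higher and 0 lower in Dicer-null over wild type, and of 12 trophoblast markers, 7 were called lower there and 8 and 9 were called higher in the Dnmt1 and Dnmt3a,3b lines, with medians of 1.46 and 1.52 and 1 trophoblast marker higher over wild type. Of 9 measured fibroblast markers, 6 were called lower and 2 higher in Dicer-null over wild type, with a range of -4.09 to 2.02. Of 8 endoderm markers, 1 was called higher and 4 lower there, with a median of -0.71. Over all genes, 20.4% were called higher and 20.2% lower over wild type, and 12.2% and 10.6% higher in the Dnmt1 and Dnmt3a,3b lines. The part of these cell type markers in the values of the replication and mitosis genes was not tested.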

How the data were processed

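Gene expression in mouse ES cells was measured on 12 Agilent arrays with 2 colours. Per the file headers, the deposited scanner files give red and green intensity per spot and a log10 ratio of red over green made by Agilent Feature Extraction; the authors' deposited value table holds log2 ratios of the same arrays. Its columns correlated with the scanner ratio turned to numerator over denominator at r = 0.968 to 1.00 with a slope of 1.00, and their medians lay between -0.14 and 0.17, so it is not centred. The processing behind that table is not given in the sources used here, and the table served as an alternative.

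Intensities were corrected with normexp (offset 50) and normalized by loess within each array (R 4.3.3, limma 3.58.1, statmod 1.5.0). Control spots and outlier spots were left out. The 2 arrays of a pair were averaged after the sign was turned, and the 6 ratios were fitted with lmFit and eBayes, 1 coefficient per comparison, with 3 residual degrees of freedom. A probe had to be present on all 12 arrays and well above background on both arrays of a pair for at least 1 RNA. The brightest probe stood for a gene, and p-values were adjusted over 19342 genes by Benjamini-Hochberg. The fit was tested on simulated data. Probes were named by RefSeq accession, symbol or older symbol. Per sample, 62.2% to 69.1% of spots were well above background, and the number of arrays limits the precision.

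All 40 members were to be named, and of the longer replication and mitosis lists up to 4 called genes per comparison with the largest statistics; marker genes were to be given by counts and ranges. Members and lists were chosen with earlier results of these data known. The alternatives covered background, normalization, filters, probes, blocks, shared RNAs and left-out arrays; those on scaling between arrays, outlier spots, saturation and the green channel were chosen after seeing the data. Replicate numbers mark the dye orientation, not separate cells. Nothing in the labels says that the RNAs came from separate cultures, so p-values measure the spread between these samples, which may be technical.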

Additional observations from a re-analysis of the deposited data

Results flagged for a closer look

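For 3 genes both arrays of clone 27G5 lay above zero and both arrays of clone 27H10 below it in the Dnmt1 line over its Dicer-null parent, and the difference between the clones was not tested. Mad2l1, for the spindle checkpoint protein Mad2, differed by 0.76, with 27G5 at 0.27 and 27H10 at -0.49. Tyms, for thymidylate synthase, differed by 0.39, with 27G5 at 0.059 and 27H10 at -0.33. Aurka, for Aurora A, differed by 0.19, with 27G5 at 0.080 and 27H10 at -0.11. These were 3 of 39 genes (7.69%), against 11.4% of all genes in the same comparison.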

How the results depend on the processing

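Over 24 alternatives, 2952 of 3142 values of single members stayed on their side of the threshold with no called value turned, 92 were no longer called, 81 were newly called and 17 were called in one direction with the opposite sign in the fit reported. Of the 2952, 256 were uncalled values whose sign changed. Most of the 2952 were uncalled in both fits, and no gene was called between the Dnmt lines in any setting, so that comparison could only add to them. The 92 lost calls all belong to the 19 member ratios called in the fit reported. The share of values that stayed therefore does not measure how stable those calls were. The cause of each change was not tested unless the setting's own construction shows it. The median reach of the 95% intervals was 0.24 to either side, and saturated red signal gives only a bound.

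Counts are of all members called under a setting, not of the same genes, with the range without a replicate in brackets. Members called higher over wild type numbered 6 in the fit reported, 3 with median centring and 0 with the shared RNAs modelled (1 to 9). Those called lower numbered 2, and 0 with shared RNAs and 5 with green alone (0 to 5). Those higher in the Dnmt1 line numbered 3, and 0 with the scanner's log ratio, 1 with the deposited table, 0 with median centring, 1 with clone as a block, 0 with shared RNAs and 1 with green (0 to 12). Those lower there numbered 3, and 5 with median centring, 5 with the replicate block, 0 with shared RNAs and 6 with green (2 to 10). Those higher in the Dnmt3a,3b line numbered 1, and 0 with the scanner's log ratio, 0 with the deposited table, 2 with the replicate block, 0 with clone as a block and 0 with shared RNAs (0 to 11). Those lower there numbered 4, and 2 with shared RNAs and 7 with green (0 to 15). The replicate block takes the dye orientation as a term. The count between the Dnmt lines was 0 in each setting run.

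The replication median over wild type (0.026) was 0.0016 with the scanner's log ratio, -0.0040 with the deposited table, -0.062 with median centring, 0.091 with unsaturated probes and -0.011 with green (-0.0041 to 0.066 without a replicate). The mitosis median (0.12) was 0.10 with the deposited table, 0.0087 with median centring, 0.14 with outlier spots kept, 0.045 with the mean over probes and 0.045 with unsaturated probes (0.0016 to 0.20). In the Dnmt1 line the replication median (-0.078) was -0.026 with the deposited table, -0.18 with median centring, -0.13 with unsaturated probes and -0.14 with green (-0.21 to 0.013), and the mitosis median (-0.058) -0.15, -0.10 and -0.11 in the last 3 settings (-0.16 to -0.039). In the Dnmt3a,3b line the mitosis median (-0.075) was -0.17 with unsaturated probes (-0.29 to -0.058).

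Among values called under a setting, Cdc6 over wild type had the opposite sign with the mean over its probes, at -0.63 (adjusted p = 0.0049). The other 16 such values came with a single dye orientation kept, which leaves the dye effect in the ratio. Over wild type these were Mcm2 (-0.29 to 0.48) and Mcm6 (-0.51 to 0.54). For the Dnmt1 line they were Mcm3 (-0.80 to 0.57), Mcm4 (-0.49 to 0.34), Mcm7 (-0.54 to 0.62) and Cdc20 (-0.37 to 0.34). For the Dnmt3a,3b line they were Mcm2 (-0.45 to 0.59), Mcm3 (-0.86 to 0.69), Mcm4 (-0.62 to 0.39), Mcm6 (-0.54 to 0.71), Mcm7 (-0.56 to 0.67), Gmnn (-0.39 to 0.56), Plk1 (-0.33 to 0.36), Kif20a (-0.48 to 0.42), Top2a (-0.50 to 0.69) and Birc5 (-0.58 to 0.59).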
